A study of Mus musculus with 35 samples.

Results

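Reactive astrocyte genes were followed in the mouse brain after a closed head injury treated with mesenchymal stromal cells (MSCs). The set is a list of gene names, not a rule on measured values, and was chosen with earlier results of these data known. It holds 10 genes, Gfap, Vim, Nes, Aqp4, Serpina3n, Lcn2, Steap4, Aspg, Cd44 and S1pr3, each found as 1 row among the 21203 gene rows of the deposited table. All 10 had enough counts to be tested among 17131 genes. Astrocytes respond to injury by enlarging and by building up the intermediate filament proteins of their cytoskeleton, and they change the proteins they secrete and carry on their surface. The response is driven by cytokines that signal through STAT3 and NF-kB, follows the severity of the damage and can fade or remain as a scar. Several of these genes are not limited to astrocytes. Vim, Nes and Cd44 are also used by MSCs and by vessel cells, and Lcn2 is also made by neutrophils and endothelium.

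Adult male C57BL/6NCrl mice received a closed head impact and, 5 days later, an injection into the left hippocampus of PBS, of MSCs, or of MSCs that had been transfected with synthetic IL-4 mRNA (IL-4 MSCs). The MSCs were bought and came from C57BL/6N mice, of the same strain as the hosts. RNA was sequenced from left cortex tissue around the injection site at 1 week post-injury (1 wpi) or at 3 wpi, 1 library per mouse, with 5 mice in each treated group except PBS at 3 wpi with 4. The 5 sham mice had neither impact nor injection, 2 collected at the first time and 3 at the second, so all injured groups also differ from Sham in the injection. The authors left 1 more PBS mouse at 3 wpi out of the table. Sample titles carry a number before a dash that the labels do not explain. Each treated group has a number of its own and Sham has 2, 1 per collection time, so whatever it marks cannot be told apart from treatment and time. Libraries held 29838423 to 41554322 estimated counts, so that 3 counts correspond to 0.0722 to 0.1005 CPM. In such bulk tissue, more cells of a type and more RNA per cell cannot be told apart. Homeostatic astrocyte markers summed to between 7579 and 9233 CPM (counts per 1000000 counts of the library) in all 34 libraries, and 16 of the 16 listed were tested.

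Promoter sequences of the members are shown because most of the genes rose at 1 wpi and because STAT3 binds sites of the form TTCNNNGAA. RefSeq windows on GRCm38.p6, from 250 bases before to 50 after the first transcribed base, were searched on both strands for TTCNNNGAA, for the AP-1 form TGANTCA and for TATAAA, and none of these overlapped another within the windows shown. TTCNNNGAA was found in 2 of the 9 windows read, against 8.30% of all 32851 windows. TGANTCA was found in 0 of the 9, against 7.81%, and TATAAA in 2, against 13.6%. Both TTCNNNGAA matches and the TATAAA of Vim and Steap4 are in capitals.
Gfap, chr11:102897181-102897450, minus strand: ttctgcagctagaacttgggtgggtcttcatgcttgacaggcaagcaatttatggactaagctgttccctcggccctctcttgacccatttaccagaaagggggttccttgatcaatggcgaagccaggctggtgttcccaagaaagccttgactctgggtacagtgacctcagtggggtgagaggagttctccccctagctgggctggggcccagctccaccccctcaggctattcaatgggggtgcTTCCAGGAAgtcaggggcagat
Steap4, chr5:7960222-7960471, plus strand: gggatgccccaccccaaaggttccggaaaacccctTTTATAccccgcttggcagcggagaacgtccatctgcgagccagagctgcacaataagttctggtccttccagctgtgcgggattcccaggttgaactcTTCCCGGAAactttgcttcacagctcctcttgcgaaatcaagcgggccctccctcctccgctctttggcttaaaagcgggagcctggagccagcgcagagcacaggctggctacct
Vim, chr2:13574061-13574310, plus strand: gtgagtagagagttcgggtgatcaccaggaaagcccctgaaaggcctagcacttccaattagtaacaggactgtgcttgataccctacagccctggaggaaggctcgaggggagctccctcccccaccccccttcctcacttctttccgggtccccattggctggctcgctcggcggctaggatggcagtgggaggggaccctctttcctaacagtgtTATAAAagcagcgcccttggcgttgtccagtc
The TTCNNNGAA match starts 2 bases before the first transcribed base in Gfap and 116 bases before it in Steap4. The TATAAA of Vim starts 32 bases before it, and that of Steap4 lies on the opposite strand 215 bases before it. A match is a stretch of letters and was not tested as a binding site. The windows of Gfap, Vim and Lcn2 lie within the gene spans given later, so other annotated transcripts of these genes start further upstream. For Serpina3n and S1pr3 the first transcribed bases of the window were not found in a GENCODE transcript of the gene.

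**Figure D1:**
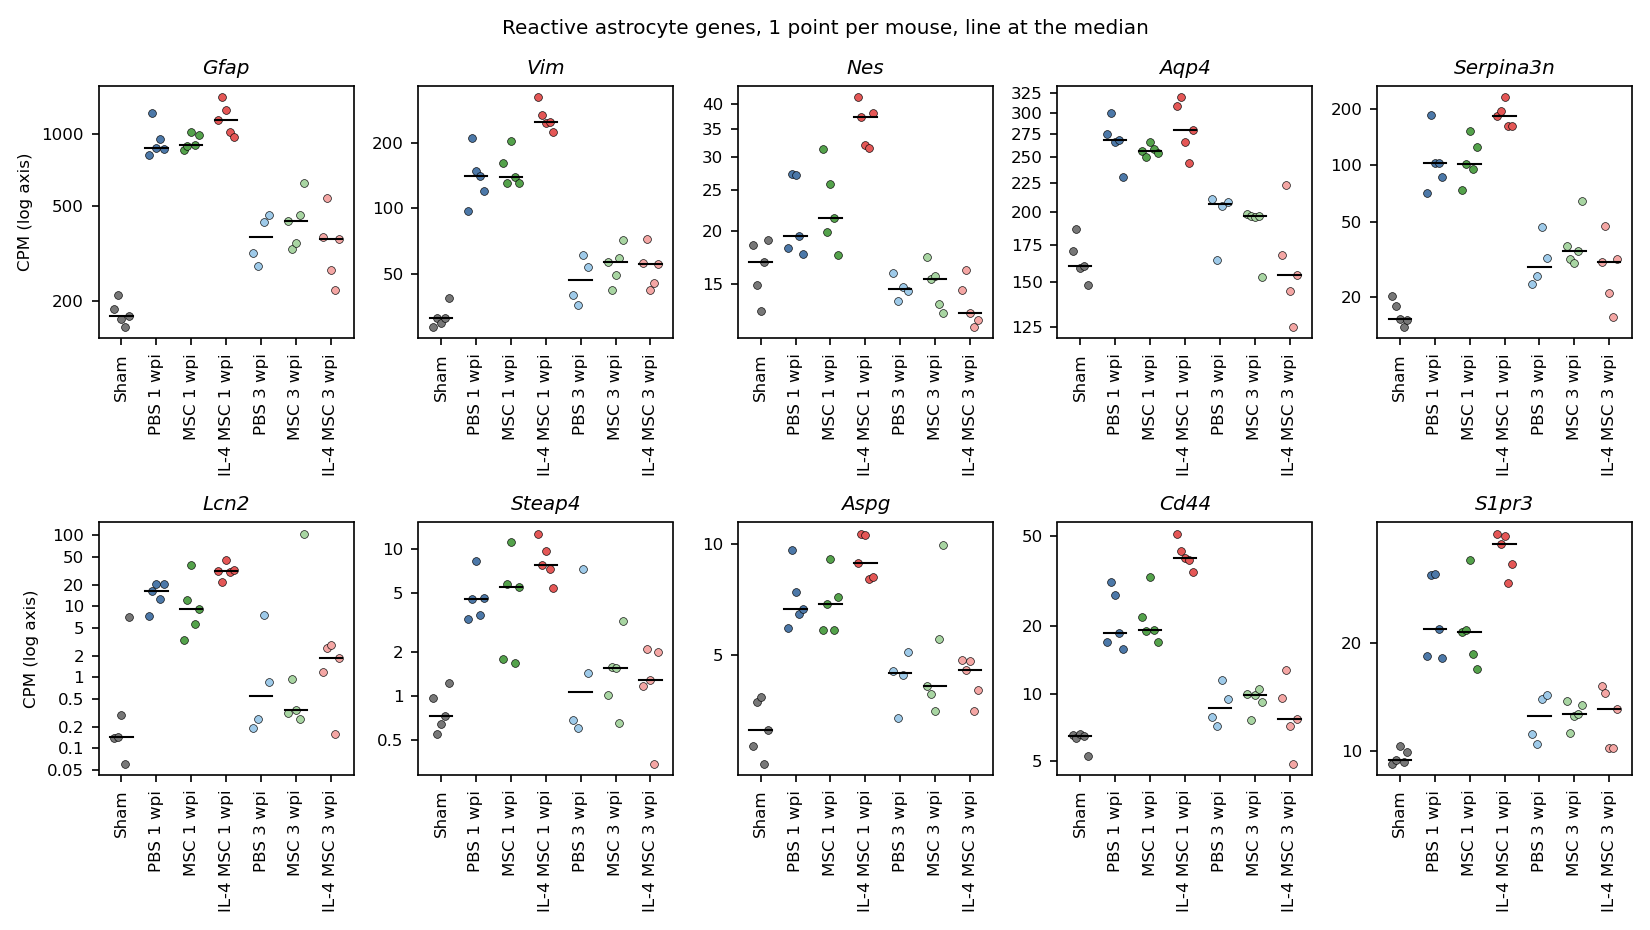
Level of each gene in CPM on log axes, 1 point per mouse, by group, with a line at the group median. The group medians were highest at 1 wpi, and in IL-4 MSCs at 1 wpi every mouse had more Vim, Cd44 and Nes than any mouse of the other groups, while the single Lcn2 points at 104 CPM in MSCs at 3 wpi and at 7.14 CPM in Sham stand far from their groups.

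At 1 wpi most of the reactive astrocyte genes were higher than in Sham in each injured group. In PBS mice 8 of the 10 were higher than in Sham and 0 lower (edgeR's quasi-likelihood test, Benjamini-Hochberg adjusted p under 0.05 over all genes), where 8.73% of all genes were higher. In MSCs 9 were higher, against 11% of all genes, and in IL-4 MSCs all 10 were, against 18.4%. The median log2 fold change of the 10 was 1.95, 1.99 and 2.65, beside -0.005, -0.008 and -0.018 over all genes tested. The mice of the group did not overlap the sham mice in 9 members for PBS, 8 for MSCs and 10 for IL-4 MSCs, against 9.88%, 13.4% and 25.7% of all genes. These comparisons share the same 5 sham mice.

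Among the filament genes, Gfap encodes the intermediate filament protein by which reactive astrocytes are usually recognised. It lies on chromosome 11 of GRCm38, 102887336 to 102900912. Values are given in the order of mouse numbers. The level in the 5 sham mice was 167, 155, 185, 211 and 173 CPM. At 1 wpi it was 821, 1228, 881, 959 and 865 CPM in PBS, 857, 892, 1025, 905 and 999 CPM in MSCs, and 1149, 1431, 1264, 1025 and 976 CPM in IL-4 MSCs. Every one of these injured mice was above every sham mouse, and the 3 injured groups overlapped each other. The log2 fold change from Sham was 2.38 in PBS (SE 0.185), 2.34 in MSCs (SE 0.185) and 2.64 in IL-4 MSCs (SE 0.187).

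Vim encodes vimentin, which joins Gfap in the filaments of reactive astrocytes, and lies on chromosome 2, 13573927 to 13582826. It was 29.7, 31.4, 28.5, 31.4 and 38.8 CPM in Sham. At 1 wpi it was 96.8, 211, 148, 140 and 120 CPM in PBS, 162, 131, 203, 139 and 131 CPM in MSCs, and 322, 267, 247, 248 and 225 CPM in IL-4 MSCs. Every IL-4 MSC mouse was above every PBS and MSC mouse. The log2 fold changes from Sham were 2.13 (SE 0.180), 2.21 (SE 0.180) and 2.96 (SE 0.184), with adjusted p-values of 1.83e-09, 6.88e-10 and 3.89e-14.

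Nes encodes nestin, a filament protein of neural progenitors that reactive astrocytes and new vessels also use, and lies on chromosome 3, 87971078 to 87980451. It was 12.9, 16.8, 18.5, 14.9 and 19.0 CPM in Sham. At 1 wpi it was 18.2, 27.4, 27.2, 19.5 and 17.6 CPM in PBS, 31.3, 19.9, 25.8, 21.5 and 17.5 CPM in MSCs, and 41.6, 37.3, 32.1, 31.5 and 38.2 CPM in IL-4 MSCs. PBS and MSC mice overlapped Sham and IL-4 MSC mice did not overlap any other group. PBS mice had 0.38 more than Sham on the log2 scale, short of the threshold (SE 0.139, adjusted p = 0.0621). The difference was 0.45 for MSC mice (SE 0.138, adjusted p = 0.0207) and 1.07 for IL-4 MSC mice (SE 0.138, adjusted p = 1.80e-07). The calls for Nes in PBS and MSCs turned on single mice. In MSCs the difference was 0.32 without mouse 1 (adjusted p = 0.112), and the call was also lost without mouse 3 (adjusted p = 0.0613) or without sham mouse 1 (adjusted p = 0.0691) or 4 (adjusted p = 0.0559). In PBS, Nes passed without mouse 1 (adjusted p = 0.0383), mouse 5 (adjusted p = 0.0311) or sham mouse 5 (adjusted p = 0.0498), and with DESeq2 (adjusted p = 0.0458). The MSC call was also lost with only the compared groups in the fit (adjusted p = 0.0662) and against only the sham mice collected at 1 wpi (adjusted p = 0.126).

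Aqp4 encodes the water channel of astrocyte end-feet around vessels and lies on chromosome 18, 15389496 to 15410982. It was 159, 160, 170, 187 and 148 CPM in Sham. At 1 wpi it ran from 231 to 300 CPM in PBS (median 269), from 250 to 266 CPM in MSCs (median 257) and from 244 to 319 CPM in IL-4 MSCs (median 279.1). All injured mice at 1 wpi were above all sham mice. The log2 fold change was 0.66 for PBS, 0.59 for MSCs and 0.71 for IL-4 MSCs (SE 0.104 each).

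Among the secreted and metabolic genes, Serpina3n encodes a protease inhibitor released by reactive astrocytes and lies on chromosome 12, 104406729 to 104414329. It was 15.3, 13.8, 20.1, 17.8 and 15.1 CPM in Sham. The 1 wpi levels were 70.8, 186, 103, 103 and 86.9 CPM in PBS, 74.2, 102, 153, 95.9 and 125 CPM in MSCs, and 182, 195, 229, 162 and 162 CPM in IL-4 MSCs. The log2 fold changes from Sham were 2.70 (SE 0.272), 2.69 (SE 0.272) and 3.43 (SE 0.277). Serpina3n has close relatives, and its estimated counts were not whole in 34 of 34 libraries, since shared reads are divided. The other Serpina3 gene with the most counts, Serpina3g, had a mean of 40.5 estimated counts per library beside 2583 for Serpina3n.

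Lcn2, on chromosome 2 from 32384633 to 32388252, encodes lipocalin 2, which binds bacterial iron carriers and is released by reactive astrocytes and neutrophils. It was 0.292, 0.0615, 0.139, 0.144 and 7.14 CPM in Sham, where the lowest value is 2 estimated counts, so sham mouse 5 stood far above the other 4. The 1 wpi levels were 7.22, 16.6, 20.6, 12.7 and 20.2 CPM in PBS, 3.33, 12.2, 37.9, 5.58 and 9.11 CPM in MSCs, and 31.0, 22.1, 45.0, 30.8 and 32.8 CPM in IL-4 MSCs. Against Sham, the log2 fold change with IL-4 MSCs was 4.35 (SE 1.22, adjusted p = 0.00502). In PBS it was 3.32 (SE 1.22, adjusted p = 0.0666) and in MSCs 3.13 (SE 1.22, adjusted p = 0.0744), neither past the threshold. Without sham mouse 5 it was 6.55 in PBS (adjusted p = 0.0122) and 6.37 in MSCs (adjusted p = 0.0119). Lcn2 in PBS also passed with all sham mice kept, with DESeq2 (3.28, adjusted p = 0.0433) and with only the compared groups in the fit (3.31, adjusted p = 0.0230). With a replicate block in the edgeR fit, Lcn2 passed in PBS (4.32, adjusted p = 0.00830) and in MSCs (3.93, adjusted p = 0.0144).

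Steap4 encodes a metalloreductase of iron and copper uptake and lies on chromosome 5, 7960457 to 7982213. It ran from 0.554 to 1.22 CPM in Sham, and at 1 wpi from 3.36 to 8.32 CPM in PBS, 1.68 to 11.1 CPM in MSCs and 5.40 to 12.6 CPM in IL-4 MSCs. Its log2 fold changes were 2.53 (SE 0.586), 2.60 (SE 0.585) and 3.30 (SE 0.583). Aspg, on chromosome 12 from 112106679 to 112127559, encodes an asparaginase. It ran from 2.55 to 3.87 CPM in Sham and from 5.83 to 10.6 CPM in the 15 injured mice at 1 wpi, with log2 fold changes of 1.12 (SE 0.201), 1.06 (SE 0.201) and 1.45 (SE 0.200). For both genes all injured mice at 1 wpi were above all sham mice.

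Among the surface receptors, Cd44 encodes the hyaluronan receptor, which MSCs also carry, and lies on chromosome 2, 102811141 to 102901665. It was 6.63, 6.45, 6.54, 6.32 and 5.28 CPM in Sham. The 1 wpi levels were 16.9, 31.3, 27.5, 18.6 and 15.7 CPM in PBS, 21.99, 18.9, 33.2, 19.2 and 17.04 CPM in MSCs, and 51.3, 43.0, 40.02, 39.2 and 34.8 CPM in IL-4 MSCs. The IL-4 MSC mice again lay above all others. The log2 fold changes from Sham were 1.78 (SE 0.207), 1.77 (SE 0.207) and 2.66 (SE 0.208).

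S1pr3, on chromosome 13 from 51408639 to 51422797, encodes a receptor for sphingosine 1-phosphate. It ran from 9.25 to 10.3 CPM in Sham. The 1 wpi levels were 18.3, 30.9, 31.1, 21.8 and 18.1 CPM in PBS, 21.4, 21.7, 33.9, 18.6 and 16.9 CPM in MSCs, and 40.1, 37.6, 39.5, 29.4 and 33.0 CPM in IL-4 MSCs. Log2 fold changes were 1.28 (SE 0.161), 1.17 (SE 0.162) and 1.82 (SE 0.162). The lowest IL-4 MSC mouse lay below the highest PBS and MSC mice, unlike for Cd44.

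**Figure D2:**
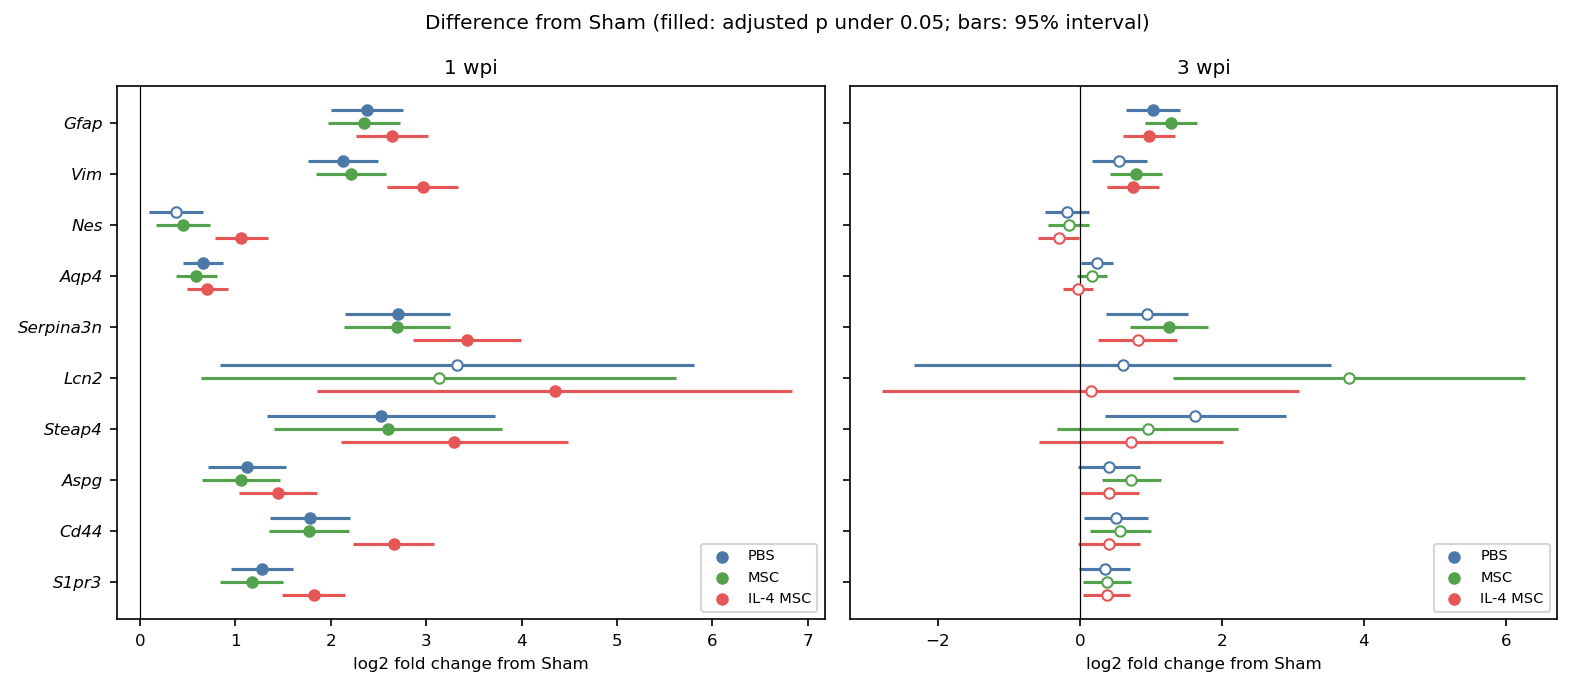
Log2 fold change of each gene from Sham at 1 wpi and at 3 wpi in PBS, MSCs and IL-4 MSCs, with 95% intervals and filled points where the adjusted p was under 0.05. The 1 wpi points run from 0.38 for Nes in PBS to 4.35 for Lcn2 in IL-4 MSCs, and at 3 wpi only Gfap is filled in all 3 groups.

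Levels of different genes were compared per transcript length, in the deposited TPM. In Sham, Gfap had 148 ± 18.5 TPM, Aqp4 77.4 ± 7.01, Vim 35.9 ± 5.11 and Serpina3n 17.9 ± 2.78 TPM (SD, n = 5), in that order and without overlap. Nes with 5.63 ± 0.941 TPM, Aspg with 4.86 ± 0.381 and S1pr3 with 4.59 ± 0.184 TPM overlapped each other. Cd44 had 3.51 ± 0.189 TPM, below all of them, and Steap4 had 0.570 ± 0.191 TPM. In IL-4 MSCs at 1 wpi the order was Gfap with 943 ± 139 TPM, Vim with 285 ± 41.3, Serpina3n with 197 ± 28.7 and Aqp4 with 128 ± 12.4 TPM (SD, n = 5). Vim and Serpina3n thus moved above Aqp4 there, and both stood below it in Sham. Lcn2 ran from 60.3 to 125 TPM there, overlapping Aqp4, and had a median of 0.416 TPM in Sham.

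Other genes linked to astrocyte reactivity were counted from lists that were chosen with earlier results of these data known. Of all genes 8.73% were higher in PBS than in Sham at 1 wpi, with a median log2 fold change of -0.005, and 2357 of 17131 were changed in either direction. Of 5 other pan-reactive genes, 3 were higher in PBS than in Sham at 1 wpi. Cxcl10, a chemokine gene, was 4.23 higher on the log2 scale (SE 0.502, adjusted p = 3.79e-07), and Timp1, which encodes a metalloproteinase inhibitor, 2.78 (SE 0.325, adjusted p = 2.86e-07). Cxcl10 ran from 0.0722 to 0.167 CPM in Sham, near the 3 counts taken as the limit of detection. Of 11 genes called A1-type, linked to neuroinflammation, 8 were higher, among them Ggta1 with 1.24 (SE 0.135, adjusted p = 1.18e-07). Of 11 tested genes called A2-type, linked to ischaemia, 9 were higher, among them Tgm1 with 6.56 (SE 0.463, adjusted p = 7.99e-11) and Ptx3 with 4.15 (SE 0.542, adjusted p = 1.66e-06). Both types thus rose in PBS, and the lists' medians were 0.87 and 1.01. In Sham, Tgm1 ran from 0.139 to 0.260 CPM and Ptx3 from 0.184 to 0.337 CPM, little above that limit. Of 16 tested cytokine and signalling genes known to act upstream, 12 were higher, with the complement gene C1qc at 1.26 (SE 0.159, adjusted p = 1.07e-06). Of 16 homeostatic astrocyte genes 4 were higher and 0 lower, with a median of 0.105. Aldh1l1, a folate enzyme gene used as an astrocyte marker, was 0.36 higher (SE 0.0651, adjusted p = 1.96e-04). Of 4 other filament genes 0 were changed in PBS, and of 10 scar matrix genes 3 were higher, among them Fn1, which encodes fibronectin, with 0.68 (SE 0.168, adjusted p = 0.00533).

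No member passed the test between MSCs and PBS at 1 wpi. The count was 0 of 10 with edgeR, 0 at an unadjusted p under 0.05 and 0 with DESeq2, where 0.123% of all genes differed. The log2 differences between MSCs and PBS ran from -0.19 to 0.087. For Gfap the difference was -0.032, with a 95% interval from -0.39 to 0.32.

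IL-4 MSCs stood above the other treatments at 1 wpi in part of the set. Against PBS, 5 of the 10 were higher and 0 lower, where 11.2% of all genes were higher. Against MSCs 4 were higher, where 7.66% of all genes were. The groups did not overlap in 4 members in each comparison, where 14.2% and 9.68% of all genes did not. These were Vim, Cd44, Nes and Lcn2 against PBS and Vim, Cd44, Nes and Serpina3n against MSCs. Both comparisons use the same IL-4 MSC mice. On the log2 scale Vim was higher by 0.84 against PBS (SE 0.169, adjusted p = 5.01e-04) and by 0.75 against MSCs (SE 0.169, adjusted p = 0.00241). Cd44 was higher by 0.88 (SE 0.190, adjusted p = 0.00103) and by 0.89 (SE 0.190, adjusted p = 0.00136). Nes was higher by 0.68 (SE 0.136, adjusted p = 4.24e-04) and by 0.61 (SE 0.135, adjusted p = 0.00195), and S1pr3 by 0.54 (SE 0.153, adjusted p = 0.0120) and by 0.65 (SE 0.153, adjusted p = 0.00390). These are changes of between 1.46- and 1.85-fold. Serpina3n was 0.73 higher than in PBS (SE 0.245, adjusted p = 0.0372). That call was lost when any 1 of 7 mice was left out, PBS mice 1, 3, 4 and 5 and IL-4 MSC mice 1, 2 and 3, with a difference of 0.61 without PBS mouse 1 (adjusted p = 0.110). Against MSCs the adjusted p of Serpina3n was 0.0589, and it passed without MSC mouse 3 (0.0220), with only the compared groups in the fit (0.0130) and with a striatal marker score as a covariate (0.0178).

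Gfap was not among the genes that differed. Its difference from PBS was 0.26 (SE 0.175, 95% interval -0.094 to 0.62, adjusted p = 0.344) and from MSCs 0.30 (95% interval -0.061 to 0.65, adjusted p = 0.366). For Aqp4 the difference from PBS was 0.044, with an interval from -0.17 to 0.25. Whether Gfap responded less than Nes or Vim was not tested. Lcn2, Aspg and Steap4 did not pass the threshold either, with differences from PBS of 1.03, 0.32 and 0.77. For Lcn2 this turned on the other groups in the fit, with an adjusted p of 0.539 among all groups and of 0.00933 with only the IL-4 MSC and PBS mice at 1 wpi.

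**Figure D3:**
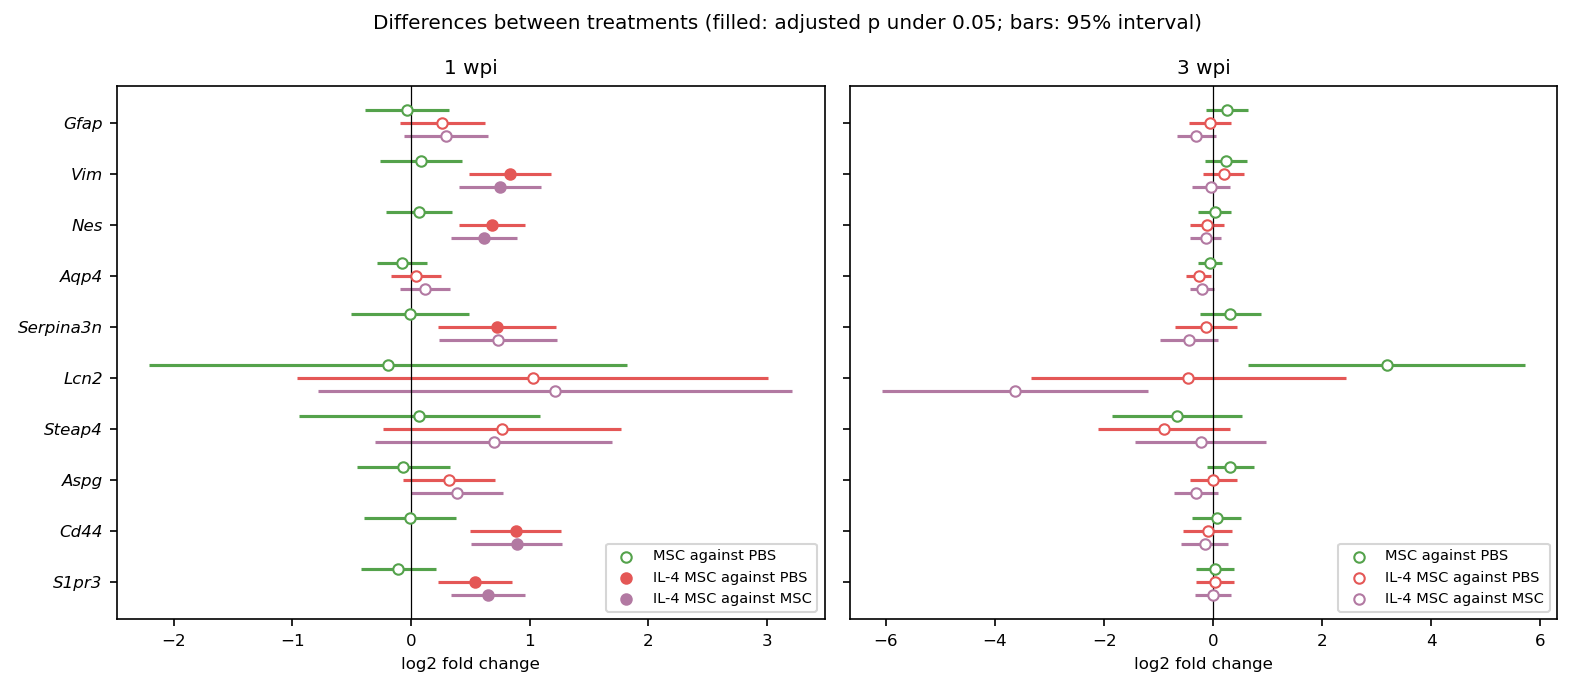
Log2 fold change between treatments for each gene at 1 wpi and at 3 wpi, with 95% intervals and filled points where the adjusted p was under 0.05. At 1 wpi Vim, Nes, Cd44 and S1pr3 are filled for IL-4 MSCs against both other treatments and Serpina3n against PBS only, and at 3 wpi no point is filled.

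The other lists divided in the same comparison of IL-4 MSCs with PBS. Of all genes 11.2% were higher there, with a median log2 fold change of -0.004, and 2974 of 17131 were changed in either direction. Of 5 pan-reactive genes 4 were higher, among them Timp1 with 1.42 (SE 0.271, adjusted p = 2.54e-04) and Cxcl10 with 1.40 (SE 0.329, adjusted p = 0.00257). Of the 11 A1-type genes 8 were higher, with a median of 1.39, and of the 11 A2-type genes 3 were, with a median of 0.38. The A1-type genes with the smallest p were H2-T23 with 1.48 (SE 0.109, adjusted p = 1.35e-11) and H2-D1 with 2.03 (SE 0.158, adjusted p = 3.65e-11), which encode major histocompatibility proteins used by many cell types. Among the A2-type genes Emp1, a membrane protein gene, was 2.47 higher (SE 0.182, adjusted p = 1.40e-11). Of 16 upstream genes 9 were higher, with Tgfb1 at 1.06 (SE 0.124, adjusted p = 1.03e-07). Of the 16 homeostatic genes 0 were higher and 2 lower, Slc1a2, the main glutamate transporter gene, with -0.25 (SE 0.0487, adjusted p = 3.92e-04) and Slc7a10 by -0.17 (SE 0.0590, adjusted p = 0.0426). Dmd, which encodes dystrophin, was lower with -0.16 (SE 0.0491, adjusted p = 0.0254). Of the other filament genes Lmna was 0.28 higher (SE 0.0527, adjusted p = 2.51e-04) and Synm lower with -0.12 (SE 0.0415, adjusted p = 0.0453). Of the scar matrix genes 2 were higher and 3 lower, Fn1 with 1.42 (SE 0.168, adjusted p = 1.47e-07) and Bcan, which encodes brevican, with -0.30 (SE 0.0423, adjusted p = 3.43e-06).

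Marker sums of other cells were looked at beside the members at 1 wpi. Of all genes 11.2% were higher in IL-4 MSC than in PBS mice, and 2974 of 17131 were changed in either direction. Monocyte and macrophage markers summed to between 289 and 424 CPM with IL-4 MSCs, 65.8 and 122 CPM with PBS, 82.9 and 138 CPM in MSCs and 21.4 and 41.3 CPM in Sham, and 7 of the 9 passed as higher in IL-4 MSC than in PBS mice. Endothelial markers summed to between 259 and 332 CPM with IL-4 MSCs, against 168 and 198 CPM in PBS, with 7 of 7 higher. Unlike the members, their sum was not higher in PBS than in Sham, which had between 188 and 212 CPM. MSCs had between 182 and 236 CPM. Pericyte and smooth muscle markers overlapped between IL-4 MSCs, with 162.5 to 193 CPM, and PBS, with 178 to 194 CPM. Neutrophil markers overlapped too, with 4.785 to 10.7 CPM against 1.80 to 11.3 CPM. Microglia markers summed to between 505 and 621 CPM with IL-4 MSCs, against 441 and 554 CPM in PBS, with 3 of 7 higher. Homeostatic astrocyte markers summed to between 7579 and 8199 CPM with IL-4 MSCs, against 8319 and 8627 CPM in PBS, with 2 of 16 lower. Slc1a2 alone had a mean of 3307 CPM with IL-4 MSCs, against 3824 CPM in PBS, while Aldh1l1 had 72.0 against 67.4 CPM. Markers of brain regions differed as well. Striatal neuron markers summed to between 550 and 1067 CPM with IL-4 MSCs at 1 wpi, against 403 and 533 CPM in PBS. Hippocampal neuron markers summed to between 248 and 261 CPM, against 293 and 335 CPM in PBS. In MSCs the sums, 359 to 1082 and 249 to 331 CPM, overlapped those of IL-4 MSCs. The part of the other cells and of the region in the members' differences was not tested.

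Genes that the injected cells could bring were looked at in the same way. Posterior Hox genes, which brain cells barely use and many stromal cells do, summed to between 2.52 and 4.27 CPM with IL-4 MSCs at 1 wpi, 1.21 and 4.28 CPM in MSCs and 0.883 and 1.75 CPM in PBS. Fibroblast and stromal markers summed to between 826 and 955 CPM with IL-4 MSCs, 741 and 1189 CPM in MSCs and 672 and 718 CPM in PBS. In Sham they summed to between 618 and 689 CPM, so most of this sum was also read in brain without injected cells. Both sums overlapped between IL-4 MSCs and MSCs. The part of the injected cells in the members' values was not tested.

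**Figure D4:**
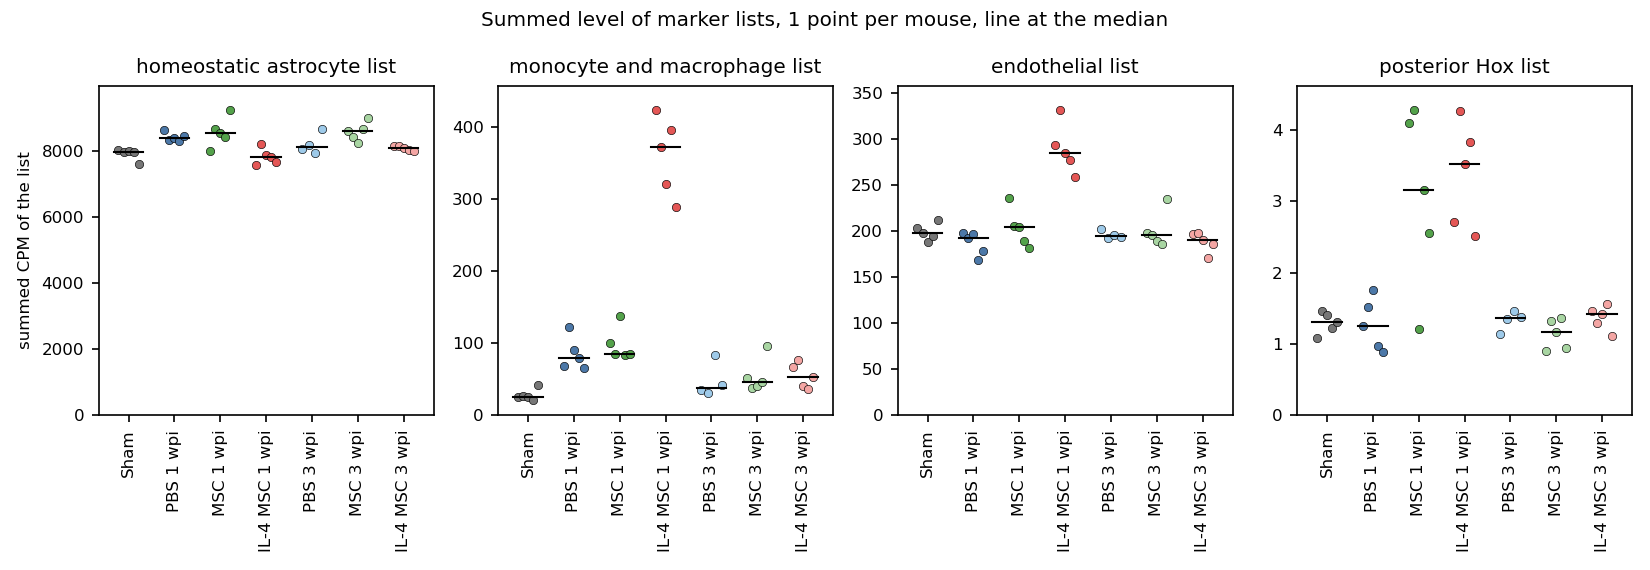
Summed CPM of the homeostatic astrocyte, monocyte and macrophage, endothelial and posterior Hox lists in each mouse, with a line at the group median and axes from 0. IL-4 MSC mice at 1 wpi stand apart in the monocyte and macrophage panel at 289 to 424 CPM and in the endothelial panel at 259 to 332 CPM, and overlap MSCs in the Hox panel.

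By 3 wpi most of the difference from Sham had gone. In PBS 1 of the 10 was still higher than in Sham, where 0.0233% of all genes were, in MSCs 3, where 1.11% were, and in IL-4 MSCs 2, where 2.76% were. The median log2 fold change of the 10 was 0.53, 0.76 and 0.42, beside 0.002, 0.003 and 0.01 over all genes. The mice did not overlap the sham mice in 4, 5 and 2 members, against 2.15%, 2.17% and 3.29% of all genes.

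Gfap was the member that passed in all 3 groups. It was 316, 279.2, 427 and 456 CPM in PBS, 434, 328, 350, 459 and 626 CPM in MSCs, and 371, 540, 270, 222 and 364 CPM in IL-4 MSCs. Every injured mouse was still above every sham mouse. The log2 fold change from Sham was 1.03 in PBS (SE 0.187), 1.29 in MSCs (SE 0.179) and 0.97 in IL-4 MSCs (SE 0.178). In PBS its adjusted p was 0.0273, and it missed the threshold without sham mouse 1 (0.107), 2 (0.133), 3 (0.0661) or 5 (0.0954) or without PBS mouse 3 (0.255) or 4 (0.234), with log2 fold changes between 0.92 and 1.05. With only the compared groups in the fit, Gfap missed the threshold with adjusted p = 0.161 for PBS and 0.0587 for IL-4 MSC mice.

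Vim was 39.8, 35.9, 60.9 and 53.6 CPM in PBS at 3 wpi, 56.5, 42.3, 49.4, 59.4 and 71.5 CPM in MSCs, and 56.3, 71.9, 42.0, 45.2 and 55.4 CPM in IL-4 MSCs. Against Sham it was higher by 0.79 in MSC mice (SE 0.178, adjusted p = 0.0160) and by 0.75 in IL-4 MSC mice (SE 0.178, adjusted p = 0.0140), while the 0.56 of PBS mice missed the threshold (SE 0.187, adjusted p = 0.704). Serpina3n was 37.3, 31.6, 30.4, 34.9 and 64.9 CPM in MSCs, 1.26 higher than in Sham (SE 0.269, adjusted p = 0.0103). Without MSC mouse 5 the difference was 1.01 for Serpina3n (adjusted p = 0.0941) and 0.69 for Vim (adjusted p = 0.105), and only Gfap was then higher in MSCs. Vim in MSCs was also lost without sham mouse 1, 2 or 3 (adjusted p = 0.0569, 0.0542 and 0.0709). Against only the sham mice collected at 3 wpi, Vim missed it with adjusted p = 0.143 for MSC and 0.109 for IL-4 MSC mice. With the striatal covariate it missed it for IL-4 MSC mice (adjusted p = 0.0688). Serpina3n in IL-4 MSCs was 0.81 above Sham (adjusted p = 0.0794), and 0.97 without mouse 4 (adjusted p = 0.0494). In PBS Serpina3n was 0.94 above Sham (SE 0.283, adjusted p = 0.611), with every PBS mouse above every sham mouse. Aspg in MSCs passed without mouse 2 (adjusted p = 0.0433) or 3 (adjusted p = 0.0241) and with DESeq2 (adjusted p = 0.0227). Aqp4 had 211, 165, 205 and 209 CPM in PBS and overlapped Sham in all 3 groups, with log2 fold changes of 0.24, 0.18 and -0.029. Nes ran from 11.8 to 17.4 CPM over the 14 mice, with log2 fold changes of -0.18, -0.15 and -0.29, none past the threshold. Cd44 had log2 fold changes of 0.51, 0.57 and 0.41, S1pr3 of 0.35, 0.38 and 0.38, Aspg of 0.41, 0.73 and 0.42, and Steap4 of 1.63, 0.96 and 0.73, none past the threshold. With only the compared groups in the fit, Cd44 and S1pr3 passed in MSCs (adjusted p = 0.0243 and 0.0239).

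The Lcn2 values at 3 wpi changed sign with single mice left out. It was 0.191, 0.258, 7.43 and 0.852 CPM in PBS, 0.319, 0.954, 0.343, 0.262 and 104 CPM in MSCs, and 1.204, 2.58, 2.81, 0.161 and 1.86 CPM in IL-4 MSCs. MSC mouse 5 thus had more Lcn2 than any mouse at 1 wpi. In MSC mice Lcn2 was 3.79 above Sham on the log2 scale (SE 1.22, adjusted p = 0.142), 7.02 without sham mouse 5 (adjusted p = 0.0288) and -1.65 without MSC mouse 5. In PBS it was 0.61, and -1.85 without PBS mouse 3. Genes chosen after their values were seen stood out in the same mice. MSC mouse 5 had 3.42 CPM of Sele and 8.30 CPM of Selp, the selectin genes of inflamed endothelium, where the other MSC mice at 3 wpi had at most 0.0639 and 0.449 CPM, and 12.7 CPM of Lrg1, where the others had at most 2.50. Sham mouse 5 had 1.07, 1.28 and 4.49 CPM of Sele, Selp and Lrg1, where the other sham mice had at most 0.0975, 0.154 and 1.28 CPM. MSC mouse 5 also had 6.55 CPM of Gabra6 and 24 CPM of Cbln3, genes of cerebellar granule cells, against at most 0.283 and 5.36 CPM in all other libraries, and neutrophil markers summed to 10.7 CPM in it. Slc6a5, looked at beside them, was high in this mouse with 19.3 CPM, where the other MSC mice had at most 1.29. It was also high in sham mouse 4, with 12.3 CPM against at most 1.45, and in PBS mouse 1 at 3 wpi, with 6.755 CPM against at most 2.03. PBS mouse 3 did not share the high selectin and Lrg1 values. It had 36.0 CPM of the complement gene C3, where the other PBS mice had at most 6.52, and 7.34 CPM of Steap4, where the others had at most 1.44. MSC mouse 5 likewise had the highest C3 and Steap4 of its group, 30.4 and 3.22 CPM, where the others had at most 11.3 and 1.57 CPM.

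Between treatments at 3 wpi, 0 of the 10 differed with edgeR in any of the 3 comparisons. At an unadjusted p under 0.05 there was 1 member in each, and 0 passed with DESeq2. Of all genes 0.0817% differed between MSCs and PBS, 2.94% for IL-4 MSCs against PBS and 3.47% for IL-4 MSCs against MSCs. For Gfap the log2 differences were 0.25 for MSCs against PBS (95% interval -0.13 to 0.63), -0.058 for IL-4 MSCs against PBS (-0.44 to 0.32) and -0.31 for IL-4 MSCs against MSCs (-0.67 to 0.049). Without IL-4 MSC mouse 2, the last of these was -0.52 and past the threshold (adjusted p = 0.0442), and Aqp4 was lower in IL-4 MSCs, with -0.41 against PBS (adjusted p = 0.00493) and -0.35 against MSCs (adjusted p = 0.0116). Markers of striatal neurons summed to between 492 and 3060 CPM with IL-4 MSCs at 3 wpi, against 340 and 663 CPM in PBS, and 13 of 13 were higher. IL-4 MSC mouse 4, with the 3060 CPM, had the lowest Gfap, Serpina3n, Cd44 and Aqp4 of its group. On the striatal marker score, the mean log2 CPM of these markers, IL-4 MSC mouse 2 had 4.40, within the 3.64 to 5.59 of all other groups. The remaining IL-4 MSC mice at 3 wpi had 6.38 to 7.21, above every mouse of the other groups. Only these high-scoring mice represent IL-4 MSCs at 3 wpi when mouse 2 is left out. The part of the region in these values was not tested.

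From 1 to 3 wpi most members fell. In PBS 8 of the 10 were lower at 3 wpi, where 4.9% of all genes were, in MSCs 7, where 4.93% were, and in IL-4 MSCs 10, where 16.6% were. Vim fell by 1.57 on the log2 scale in PBS (SE 0.189), by 1.42 in MSCs (SE 0.174) and by 2.21 in IL-4 MSCs (SE 0.177). Gfap fell by 1.34 (SE 0.193), 1.06 (SE 0.177) and 1.67 (SE 0.180). Serpina3n fell by 1.76, 1.43 and 2.61, Cd44 by 1.27, 1.20 and 2.25, and S1pr3 by 0.93, 0.79 and 1.44. Aqp4 fell by 0.43, 0.42 and 0.74 and Nes by 0.57, 0.61 and 1.36. In PBS the falls of Nes, Aqp4 and Aspg were each lost when PBS mouse 2 at 1 wpi (adjusted p = 0.0813, 0.0549 and 0.154) or PBS mouse 2 at 3 wpi (adjusted p = 0.0698, 0.108 and 0.177) was left out. Those of Nes and Aspg were also lost without PBS mouse 3 at 1 wpi, and that of Aspg without PBS mouse 1 or 3 at 3 wpi. Steap4 in PBS changed by -0.90, short of the threshold (adjusted p = 0.445), but by -2.41 without PBS mouse 3 at 3 wpi (adjusted p = 0.00967). In MSCs, Lcn2 was 0.65 higher at 3 wpi (adjusted p = 0.802) and its log2 change was -4.78 without mouse 5 (adjusted p = 0.00283). Aspg in MSCs had a log2 change of -0.33 (adjusted p = 0.392), and of -0.68 without that mouse (adjusted p = 0.00507). Steap4 had -1.64 (adjusted p = 0.0679), and passed without mouse 5 (-2.06, adjusted p = 0.0257) or without MSC mouse 1 (-1.86, adjusted p = 0.0407) or 4 (-1.87, adjusted p = 0.0362) at 1 wpi.

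Whether a treatment difference was larger at 1 wpi than at 3 wpi was tested directly. For IL-4 MSCs against PBS it was larger at 1 wpi in 2 members, where 3.93% of all genes were, by 0.98 for Cd44 on the log2 scale (SE 0.290, adjusted p = 0.0449) and by 0.79 for Nes (SE 0.202, adjusted p = 0.0166). For IL-4 MSCs against MSCs it was larger in 5, where 5.96% of all genes were. These were Cd44 with 1.05 (SE 0.281, adjusted p = 0.0166), Nes with 0.75 (SE 0.196, adjusted p = 0.0135), Vim with 0.79 (SE 0.242, adjusted p = 0.0389), Serpina3n with 1.18 (SE 0.357, adjusted p = 0.0357) and Lcn2 with 4.85 (SE 1.55, adjusted p = 0.0492). Without MSC mouse 5 at 3 wpi only Cd44 and Nes passed, and Lcn2 was -0.57 (adjusted p = 0.899). Vim was lost when any of 10 single mice was left out, Serpina3n any of 8 and Lcn2 any of 14. Without IL-4 MSC mouse 2 at 3 wpi, Gfap (0.84, adjusted p = 0.0136), Aqp4 (0.48, adjusted p = 0.00884) and S1pr3 (0.73, adjusted p = 0.0360) passed as well. The IL-4 MSC mice then kept at 3 wpi were those with the high striatal marker scores. Cd44 against PBS passed only narrowly and was lost when any of 11 single mice was left out, with values between 0.84 and 1.04. It also missed the threshold with only the compared groups in the fit (adjusted p = 0.0793) and with the striatal covariate (adjusted p = 0.0685), and against MSCs with that covariate (adjusted p = 0.0505). Nes was past the threshold in both comparisons with each mouse left out in turn. For MSCs against PBS 0 members passed with edgeR, 1 had an unadjusted p under 0.05 and 0 passed with DESeq2, where 0% of all genes differed with edgeR.

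Across the 34 libraries the members varied together, as a description over mice that share groups. Pearson's r of log2 CPM between 2 members ran from 0.588 for Lcn2 and Aqp4 to 0.979 for Cd44 and S1pr3. Of all genes tested, the one most like Gfap was Serpina3n (r = 0.976), and the one most like Vim was Tgm1 (r = 0.976), which encodes a transglutaminase. Cd44 was most like S1pr3, and S1pr3 most like Pdpn (r = 0.980), which encodes podoplanin. Lcn2 was most like the chemokine gene Cxcl1 (r = 0.934) and the adhesion gene Icam1 (r = 0.925). Steap4 was most like A2m (r = 0.928), Aspg most like Hspb8 (r = 0.934), and Aqp4 most like the urea transporter gene Slc14a1 (r = 0.930). Among the members Nes had its lowest r with Lcn2 (r = 0.604). Among all genes it was most like Cav1 (r = 0.933), which encodes caveolin 1, Mcm2 (r = 0.931), a DNA replication gene, and Ccnd1 (r = 0.928), which encodes cyclin D1.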

How the data were processed

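Total RNA of left cortex was sequenced by the authors, 1 library per mouse, and quantified with kallisto 0.46 after cutadapt 2.4 and FastQC 0.11.8 against protein-coding GENCODE transcripts. The deposited table holds estimated counts per gene, which the authors did not normalize, and the authors' TPM values, scaled for transcript length and depth. A further 63 columns hold the authors' own p-values, q-values and fold changes from sleuth 0.30 and were not used. Of the estimated counts 38.3% were not whole (tolerance 0.01), and they were rounded. Depth bounds precision by counting error only.

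Genes were filtered with filterByExpr and scaled by TMM (factors 0.968 to 1.038). All 34 libraries were fitted in 1 model of group means with edgeR 4.0.16 in R 4.3.3, with the quasi-likelihood test, two-sided, and Benjamini-Hochberg adjustment over 17131 genes at 0.05. The SE is the absolute log2 fold change divided by the square root of F. CPM is the estimated count per 1000000 counts of the library. Replicates are mice. Within groups, 66 of 66 pairs of libraries differed beyond sampling noise. DESeq2 1.42.0, RLE size factors, no filter, smaller fits, a replicate block, a striatum covariate, sham mice of the same week, a fold threshold and leaving out mice were tried as alternatives. The members and lists were chosen with earlier results of these data known. The 10 members were eligible to be named in each comparison. Of other lists at most 4 genes were eligible, those with the smallest p among the changed ones for PBS against Sham and then for IL-4 MSCs against PBS at 1 wpi. For likeness the 5 genes with the highest r per member were eligible. Gene positions are from GENCODE on GRCm38.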

Additional observations from a re-analysis of the deposited data

Results flagged for a closer look

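Single mice stood apart from their group by Dixon's criterion in 13 of 70 tests of a member in a group, where chance gives about 1 in 20 for independent, normally distributed values. The members varied together over the same mice and CPM was used without a log, so that rate is no strict standard here. Lcn2 did so in 4 groups, with 7.14 CPM in sham mouse 5, 37.9 CPM in MSC mouse 3 at 1 wpi, 7.43 CPM in PBS mouse 3 at 3 wpi and 104 CPM in MSC mouse 5 at 3 wpi. MSC mouse 5 at 3 wpi also had the highest Serpina3n, 64.9 CPM, and the lowest Aqp4, 153 CPM, of its group. Sham mouse 5 had the highest Vim, 38.8 CPM, and the lowest Cd44, 5.28 CPM. The others were Serpina3n with 186 CPM in PBS mouse 2 at 1 wpi, S1pr3 with 33.9 CPM in MSC mouse 3 at 1 wpi, Steap4 with 8.32 CPM in PBS mouse 3 at 1 wpi and 7.34 CPM in PBS mouse 3 at 3 wpi, and Aqp4 with 165 CPM, the lowest, in PBS mouse 2 at 3 wpi.

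The effect of treatment differed between the weeks by an interaction test in 7 cases. For IL-4 MSCs against PBS the log2 difference at 1 wpi exceeded that at 3 wpi by 0.98 for Cd44 and 0.79 for Nes. For IL-4 MSCs against MSCs it did so by 0.79 for Vim, 1.18 for Serpina3n, 4.85 for Lcn2, 1.05 for Cd44 and 0.75 for Nes. Only Nes in both comparisons and Cd44 against MSCs passed with each mouse left out in turn. Lcn2 was -0.57 without MSC mouse 5 at 3 wpi.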

How the results depend on the processing

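With RLE size factors and DESeq2 each count of members called stayed within 1.5 times the first value. With a log2 fold change of at least 1 also required, 0 members were called for IL-4 MSCs against PBS and 0 against MSCs at 1 wpi, 0 for IL-4 MSCs against Sham at 3 wpi, 4 fell in PBS and 4 in MSCs, and the week differences held 0 and 3. With only the groups compared in the fit, counts against Sham at 3 wpi were 0 (PBS), 5 (MSCs) and 1 (IL-4 MSCs), and 1 for the week difference from PBS. With the striatum covariate 1 was called for IL-4 MSCs against Sham at 3 wpi and 1 in each week difference. With sham mice of the same week that count against Sham was 1, and with no filter the week difference from PBS held 1. Mouse numbers did not pair the mice (median r of same-numbered mice 0.0116), and with the replicate block PBS against Sham at 3 wpi held 0 and the week difference from MSCs 3. Without both sham mouse 5 and MSC mouse 5 at 3 wpi, chosen after the data were seen, MSCs against Sham held 1 and the week difference from MSCs 2. The causes were not tested.

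Over fits that each lacked a single mouse, counts against Sham at 1 wpi ran from 8 to 10 for PBS, 8 to 10 for MSC and 10 to 10 for IL-4 MSC mice, and from 0 to 1, 1 to 4 and 2 to 3 at 3 wpi. IL-4 MSCs held 4 to 5 against PBS and 4 to 5 against MSCs at 1 wpi, and 0 to 1 and 0 to 2 at 3 wpi. The falls ran from 5 to 8, 7 to 10 and 10 to 10, and the week differences from 1 to 5 against PBS and 2 to 8 against MSCs.

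Signs turned mostly in values near 0 and in Lcn2. Lcn2 against Sham at 3 wpi was -0.13 in PBS and -0.58 in IL-4 MSCs with sham mice of the same week, and with single mice left out ran from -1.85 to 3.84 for PBS, -1.65 to 7.02 for MSC and -0.18 to 3.38 for IL-4 MSC mice. Lcn2 from 1 to 3 wpi in MSCs was -0.88 with the replicate block, -4.79 without both mice and -4.78 to 1.51 with single mice left out. Its week difference from MSCs was -0.56 without both mice and -0.57 to 5.73. Aqp4 in IL-4 MSCs against Sham at 3 wpi was 0.11 with the striatum covariate, 0.057 with sham mice of the same week and -0.17 to 0.045 with single mice left out. Gfap was 0.059 with the covariate and -0.079 to 0.073 for MSCs against PBS at 1 wpi, and 0.20 and -0.27 to 0.064 for IL-4 MSCs against PBS at 3 wpi. The lowest Lcn2 values, at 2 estimated counts, are below the 3 counts taken as the limit of detection.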
